A study of Mus musculus with 24 samples.

Results

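Cytosolic tRNA-Phe carries one of the most heavily modified anticodon loops in mammalian cells. The guanosine next to the 3′ side of its anticodon (position 37) is built into hydroxywybutosine, a tricyclic base, by a chain of enzymes: TRMT5 methylates the guanosine, TYW1 adds carbons from pyruvate to close the extra ring, TRMT12 (also called TYW2) attaches an aminocarboxypropyl group from S-adenosylmethionine, TYW3 adds a methyl group, TYW5 hydroxylates the side chain of the resulting intermediate, and LCMT2 (TYW4) completes the base. The methyltransferase FTSJ1 adds methyl groups to the ribose at positions 32 and 34, with WDR6 as its partner at position 34 and THADA at position 32. These marks are known to support codon reading and to keep the reading frame at phenylalanine codons, and FTSJ1 is known for its link to intellectual disability.

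The genes of these 8 proteins (Trmt5, Tyw1, Trmt12, Tyw3, Lcmt2, Tyw5, Ftsj1 and Wdr6) were taken by symbol from the 55469 rows of the tables of normalised counts of the brain and of the liver, and each matched 1 row in each table. RNA was sequenced from brain and liver of WT mice and of 3 homozygous knockout lines, each without 1 tRNA-Phe gene (tRNA-Phe-1-1-/- or tRNA-Phe-2-1-/- or tRNA-Phe-3-1-/-), with 3 samples of each genotype in each tissue (24 in all). The labels describe male WT and mutant mice matched by age and litter, on a C57BL/6N background and fed normal chow. Per the methods they were 10 weeks old. The deletions were made with CRISPR-Cas9 and 1 guide and were bred for at least 10 generations, so they are carried in every cell, and the RNA of whole tissue comes from all its cell types.

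The 3 deleted genes are given here as genomic DNA on the strand of the tRNA, read from GRCm39, because they differ little and share the bases on which the 8 proteins act. Capitals mark positions 32, 34 and 37, counted from 1 at the 5′ end of the gene.
tRNA-Phe-1-1 (chr5:125483119-125483191, minus strand): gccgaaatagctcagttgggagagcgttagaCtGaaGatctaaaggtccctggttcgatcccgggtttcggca
tRNA-Phe-2-1 (chr19:11985909-11985981, plus strand): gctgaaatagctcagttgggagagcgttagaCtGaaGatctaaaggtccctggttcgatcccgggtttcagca
tRNA-Phe-3-1 (chr13:22067055-22067127, minus strand): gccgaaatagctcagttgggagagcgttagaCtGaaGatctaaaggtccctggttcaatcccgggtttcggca

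Each gene is 73 bases long. Relative to tRNA-Phe-1-1, the gene tRNA-Phe-2-1 has the substitutions C3T and G70A and the gene tRNA-Phe-3-1 has G57A, and none of these 3 lies in the anticodon arm (positions 27 to 43). The guide used for all lines, shown because it covers the modified bases, has 20 bases (gcgttagaCtGaaGatctaa) and spans positions 24 to 43 of the tRNA. Followed by the motif NGG, it matched 7 tRNA-Phe genes in GRCm39, of which the other 4 are identical in sequence to tRNA-Phe-1-1.

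The reads assigned to genes, as recovered from the normalised counts, numbered 30365760 to 46225360 per brain sample and 32276896 to 51584522 per liver sample. All 8 genes passed the filter of a mean normalised count of at least 10 in both tissues, among 19228 tested genes of the brain and 15856 of the liver. The sum of 3 neuronal markers was at least 57110 normalised counts in each brain sample, and the sum of 3 hepatocyte markers at least 1498000 in each liver sample. Tests were made with limma on log2(normalised count + 1), a difference was called at a Benjamini-Hochberg adjusted p under 0.05 over all genes, and errors of log2 fold changes are standard errors.

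Scaled by exon length and depth (RPKM, from recovered reads and the exons of the GENCODE vM39 annotation), Wdr6 was the highest of the 8 genes in both tissues. Its RPKM in WT was 24.7 ± 4.79 (SD, n = 3) in the brain and 4.12 ± 0.317 (SD, n = 3) in the liver. In the WT brain, Trmt12 followed with 2.71 ± 0.213 RPKM, clear of the range of all lower genes. Tyw1, Lcmt2, Tyw5 and Trmt5 lay close together with mean RPKM between 1.48 and 1.81 and ranges that overlapped from neighbour to neighbour. Ftsj1 (1.25 ± 0.0966 RPKM) and Tyw3 (1.12 ± 0.0858 RPKM) were lowest and overlapped each other.

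In the WT liver, Tyw1 (1.79 ± 0.0777 RPKM) and Lcmt2 (1.58 ± 0.117 RPKM) came next after Wdr6, each clear of the gene below it. Trmt12, Ftsj1, Tyw5 and Trmt5 overlapped, with mean RPKM between 0.925 and 1.07. Tyw3 was lowest and most uneven, at 0.111 to 0.552 RPKM over all 12 livers, and the widest spread was in the WT livers themselves. The tables of the tissues were normalised separately, so differences between tissues are given as levels without a test.

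In the liver, the loss of tRNA-Phe-1-1 went with lower Tyw5 and Wdr6 and higher Ftsj1, while the other 5 genes did not pass the test. Thus 3 of 8 genes were called in tRNA-Phe-1-1-/- against WT, where 17.3% of all genes tested were called. In tRNA-Phe-2-1-/- livers 0 of 8 were called by limma (0.132% of all genes), and in tRNA-Phe-3-1-/- livers 0 of 8 (0.883% of all genes), with 1 gene, Wdr6, at an unadjusted p under 0.05 in each. All 3 comparisons use the same WT samples. edgeR on recovered reads called 0 of 8 in both, and DESeq2 called 0 in the former and 1 (Wdr6) in the latter.

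**Figure D1:**
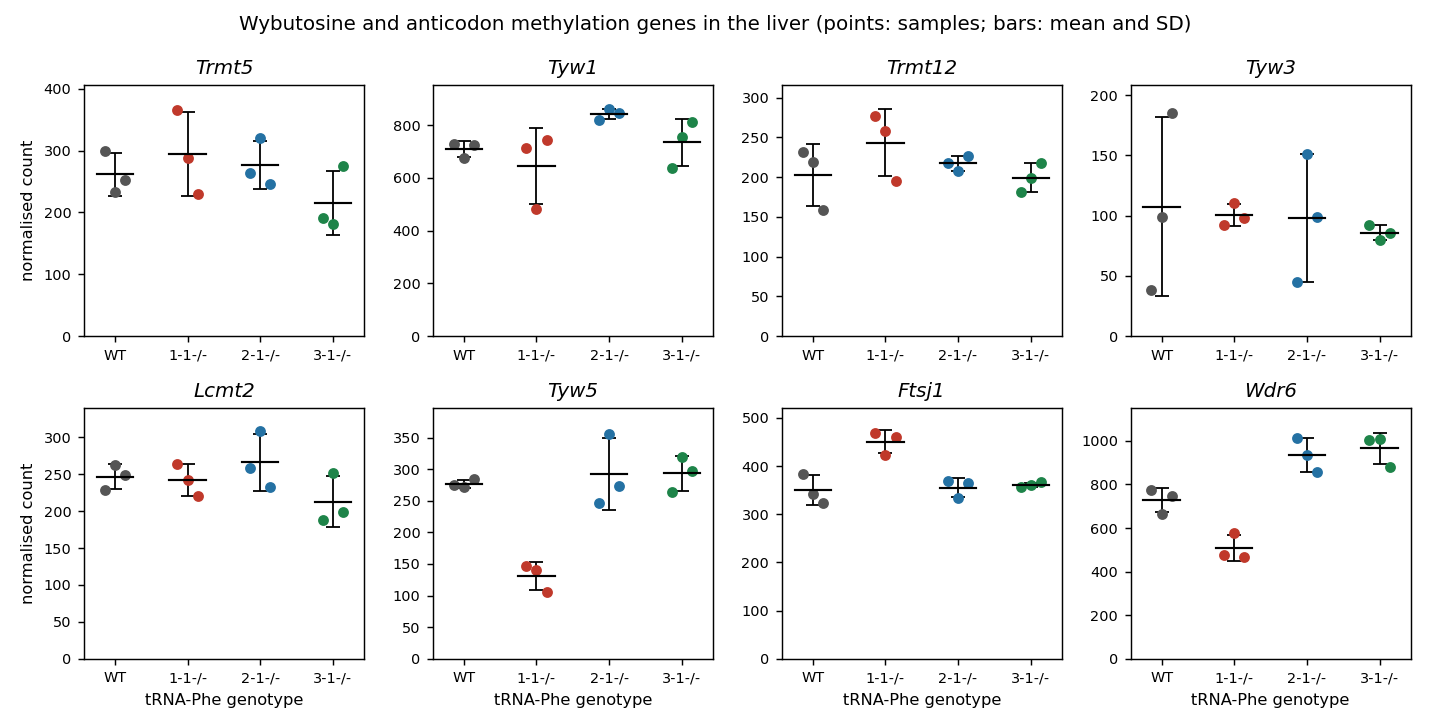
Normalised counts of the 8 genes in each liver sample by genotype, on linear axes that start at 0 (points are samples, lines and bars are the mean and SD of 3). Tyw5 in tRNA-Phe-1-1-/- livers reached at most 146.8, under the lowest WT value of 271.8.

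Tyw5, the hydroxylase of the pathway (chr1:57388235-57406674, GRCm38.p6), had normalised counts of 274.5, 271.8 and 284.1 in the WT livers. It had 146.8, 141.1 and 105.4 in tRNA-Phe-1-1-/- livers. The 3 mutants were all below the 3 WT samples, and also below every tRNA-Phe-2-1-/- sample (246.0, 355.6 and 273.8) and every tRNA-Phe-3-1-/- sample (264.1, 319.6 and 297.6). The log2 fold change against WT was -1.09 ± 0.17, with an adjusted p of 0.00146. Against WT, the call held under all 22 alternatives, with adjusted p between 1.91e-07 and 0.0106 and log2 fold changes between -1.18 and -0.94. In the other knockouts Tyw5 was near WT, with log2 fold changes of 0.06 (95% interval -0.30 to 0.42) in tRNA-Phe-2-1-/- and 0.08 (-0.28 to 0.44) in tRNA-Phe-3-1-/-.

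Compared directly with the other knockouts, tRNA-Phe-1-1-/- livers had a log2 difference in Tyw5 of -1.15 ± 0.17 against tRNA-Phe-2-1-/- (adjusted p = 0.00124) and of -1.17 ± 0.17 against tRNA-Phe-3-1-/- (adjusted p = 0.00111). For tRNA-Phe-2-1-/- against tRNA-Phe-3-1-/- it was -0.02 (95% interval -0.39 to 0.34). These comparisons of knockouts with each other called 3 of 8 genes (Tyw5, Ftsj1 and Wdr6) for both pairs with tRNA-Phe-1-1-/-, against 15.9% and 16.1% of all genes, and 0 of 8 for tRNA-Phe-2-1-/- against tRNA-Phe-3-1-/-, where 0% of all genes were called by limma. In that last pair no gene of the 8 had an unadjusted p under 0.05 and edgeR and DESeq2 called 0 as well.

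Ftsj1, the ribose methyltransferase of positions 32 and 34 (chrX:8238668-8252406), had normalised counts of 384.0, 343.0 and 324.3 in the WT livers. It had 468.6, 423.2 and 460.5 in tRNA-Phe-1-1-/- livers, all 3 above every other liver sample. The 6 livers of the other knockouts lay between 332.7 and 368.6, within the WT range. The log2 fold change against WT was 0.36 ± 0.10, with an adjusted p of 0.0267. The call against WT held in 17 of 22 alternatives. It was lost when only the compared groups were fitted (adjusted p = 0.0894) and when any of 4 libraries was left out, with adjusted p = 0.0762 without WT replicate B, 0.103 without WT replicate C, 0.0933 without tRNA-Phe-1-1-/- replicate A and 0.0625 without tRNA-Phe-1-1-/- replicate C. The difference stayed between 0.31 and 0.43 throughout the alternatives. The log2 difference was 0.34 against tRNA-Phe-2-1-/- (adjusted p = 0.0366), a call that held in 12 of 22 alternatives and was lost without WT replicate B, tRNA-Phe-1-1-/- replicate A or C, or any tRNA-Phe-2-1-/- replicate (adjusted p between 0.0502 and 0.135). It was 0.32 against tRNA-Phe-3-1-/- (adjusted p = 0.0476), a call that held in 7 of 22 and was lost without any library other than WT replicate A (adjusted p between 0.0513 and 0.140).

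Wdr6, the partner of FTSJ1 at position 34 (chr9:108572311-108578713), was the gene that separated the genotypes of the liver most, with the lowest p of the 8 for any difference among the 4 genotypes. The WT livers had normalised counts of 773.8, 666.1 and 744.6. The tRNA-Phe-1-1-/- livers had 478.0, 577.5 and 468.7, all below WT. The tRNA-Phe-2-1-/- livers had 1011, 936.3 and 858.1, and the tRNA-Phe-3-1-/- livers 1005, 1009 and 881.7, all above WT and overlapping each other. Such a gap to WT in either direction was found for 25.4% of all genes in the former and 19.9% in the latter.

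The log2 fold change of Wdr6 in tRNA-Phe-1-1-/- livers was -0.52 ± 0.11 (adjusted p = 0.00823), called under all 22 alternatives with adjusted p up to 0.0374. In tRNA-Phe-2-1-/- it was 0.36 ± 0.11 (adjusted p = 0.190) and in tRNA-Phe-3-1-/- 0.41 ± 0.11 (adjusted p = 0.106), neither of which passed, although the groups did not overlap. DESeq2 on recovered reads gave adjusted p = 0.0714 and 0.0261 for these 2 comparisons. Between knockouts, Wdr6 was lower in tRNA-Phe-1-1-/- by a log2 difference of -0.88 ± 0.11 against tRNA-Phe-2-1-/- (adjusted p = 0.000585) and -0.93 ± 0.11 against tRNA-Phe-3-1-/- (adjusted p = 0.000460).

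FTSJ1 and WDR6 act together at position 34, and their genes moved in opposite directions in tRNA-Phe-1-1-/- livers. Over the 12 livers, Pearson's r of log2 values was -0.77 between Ftsj1 and Wdr6, -0.90 between Tyw5 and Ftsj1 and 0.86 between Tyw5 and Wdr6, as a description only, since the 12 points share the genotypes. The test of any difference among the 4 genotypes of the liver called 2 of 8 genes, Tyw5 (adjusted p = 0.00177) and Wdr6 (adjusted p = 0.000884), with Ftsj1 at 0.0542. Of all genes, 17% were called by this test. It called 3 of 8 with edgeR or DESeq2 on recovered reads, with a mean of at least 50, and without WT replicate A.

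The other enzymes of the wybutosine pathway did not pass the test in any liver comparison. For Trmt5 (chr12:73268515-73286975), the first step, the 12 livers lay between 181.2 and 366.1 normalised counts and every genotype overlapped WT. Tyw1 (chr5:130255572-130341568), which closes the ring, was at 819.7, 860.1 and 848.0 in tRNA-Phe-2-1-/- livers, above the WT values of 728.9, 677.0 and 723.8. Its log2 fold change was 0.25 ± 0.15 (adjusted p = 0.464), and its tRNA-Phe-1-1-/- samples spread from 481.4 to 743.9. The log2 difference of Tyw1 in tRNA-Phe-1-1-/- livers against tRNA-Phe-2-1-/- was -0.41 ± 0.15 (adjusted p = 0.0886), and without tRNA-Phe-1-1-/- replicate C it was -0.52 and passed (adjusted p = 0.0464). Trmt12 (chr15:58872649-58876781) and Lcmt2 (chr2:121137292-121140698) stayed between 158.3 and 276.7 and between 188.3 and 308.8 normalised counts in the 12 livers, and each knockout overlapped WT. Their log2 fold changes reached 0.27 (95% interval -0.11 to 0.64) for Trmt12 in tRNA-Phe-1-1-/- and -0.22 (-0.55 to 0.11) for Lcmt2 in tRNA-Phe-3-1-/-.

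Tyw3 (chr3:154576520-154597113), the methyltransferase between TRMT12 and LCMT2, was the least even of the 8 genes in the liver. Its WT livers had normalised counts of 38.10, 98.83 and 185.5 and the tRNA-Phe-2-1-/- livers 44.87, 151.1 and 98.63. The tRNA-Phe-1-1-/- livers (92.22 to 110.2) and the tRNA-Phe-3-1-/- livers (79.89 to 92.21) lay inside that range. With a standard error of 0.51 on the log2 scale, its 95% interval in tRNA-Phe-1-1-/- ran from -0.95 to 1.28, so smaller changes were not detectable at this spread.

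Over all 8 genes, the ranges of knockout and WT livers did not overlap for 3 genes in tRNA-Phe-1-1-/- (34.8% of all genes), 2 genes in tRNA-Phe-2-1-/- (Tyw1 and Wdr6, 25.4% of all genes) and 1 gene in tRNA-Phe-3-1-/- (Wdr6, 19.9% of all genes). For a single gene, the smallest p that an exact permutation test of 3 against 3 allows is 0.1. The median log2 fold changes of the 8 genes were 0.06, 0.09 and 0.02 in the 3 knockouts of the liver in the same order, beside medians of -0.01, 0.00 and 0.01 over all genes.

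**Figure D2:**
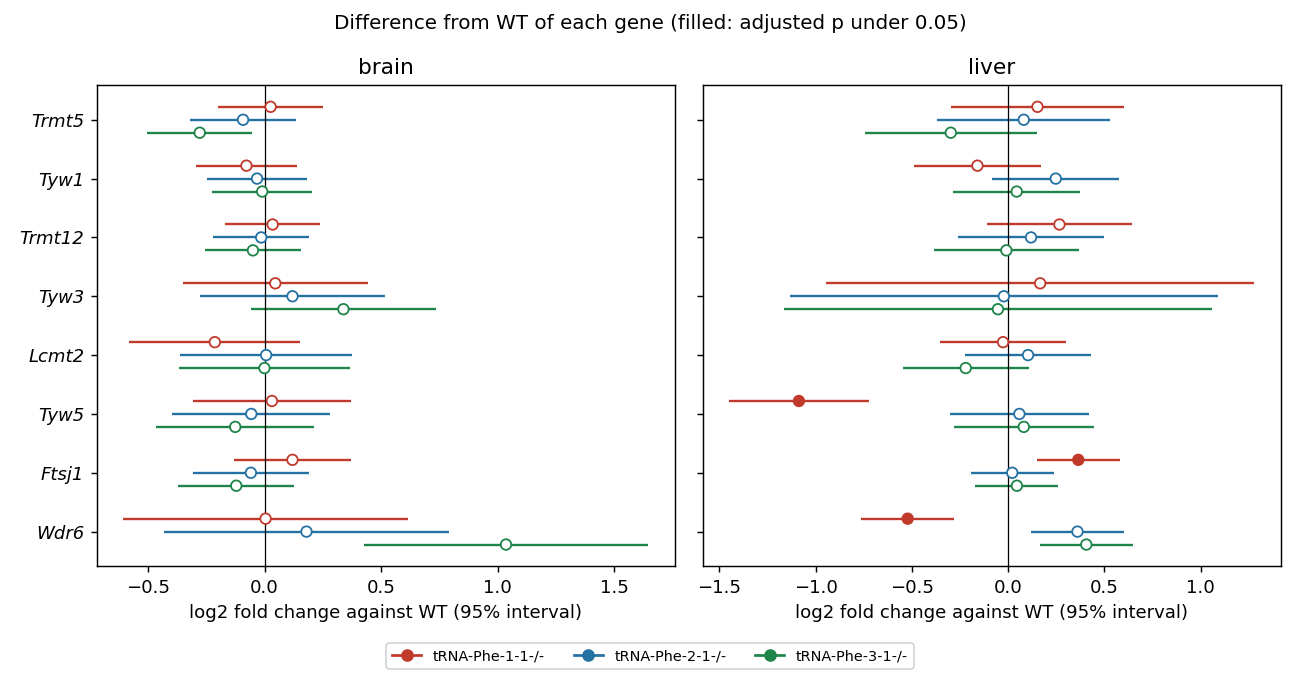
Log2 fold change against WT of each gene in the brain and the liver, with its 95% interval, for the 3 knockouts (filled points have an adjusted p under 0.05 by limma). The filled points are Tyw5 (-1.09), Wdr6 (-0.52) and Ftsj1 (0.36) in tRNA-Phe-1-1-/- livers.

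Markers of other cell types also differed in tRNA-Phe-1-1-/- livers. The sum of 3 erythroid markers was 8819 to 10740 normalised counts there and 15230 to 19340 in WT, with 2 of 3 markers called. The sum of 3 hepatocyte markers was 1498000 to 1981000 against 2139000 to 2805000, with 1 of 3 called (Cyp3a11). Most of that sum was Alb, which was not called (log2 fold change -0.48, adjusted p = 0.267). Apoa1 was not called either (log2 fold change -0.10, adjusted p = 0.708). The sum of 3 markers of stellate cells and fibroblasts was 5794 to 6536 against 4589 to 5217, with 1 of 3 called, and 2 of 3 endothelial markers were called, Pecam1 higher and Kdr lower. Of the neuronal markers, Snap25 was at or near 0 in every liver (at most 3.38), and 1 of 3 (Syt1) was called lower. The mitochondrial share of reads was 4.09% to 4.17% in these livers, against 4.61% to 5.76% in WT and 4.32% to 5.11% in the other knockouts. In whole tissue, fewer cells of a type and less RNA per cell cannot be told apart, and the part of these differences in the values of Tyw5, Wdr6 and Ftsj1 was not tested. No marker of these lists was called in the livers of the other knockouts, but some sums were apart from WT there too. In tRNA-Phe-2-1-/- livers the hepatocyte sum was 1762000 to 1967000 and that of stellate cells and fibroblasts 5360 to 6797, and in tRNA-Phe-3-1-/- livers the erythroid sum was 19720 to 24720. The sum of 3 cholangiocyte markers was 124.2 to 154.4 in tRNA-Phe-2-1-/- and 87.76 to 175.8 in tRNA-Phe-3-1-/-, against 203.2 to 248.1 in WT. That of 3 Kupffer cell markers was 4946 to 5201 in tRNA-Phe-2-1-/- against 4106 to 4820 in WT. The neuronal sum was 331.9 to 456.4 in tRNA-Phe-3-1-/- against 183.7 to 326.9 in WT. The part of these sums in the values of the 8 genes was not tested.

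In the brain, none of the 8 genes passed the test in any comparison. limma called 0 of 8 in tRNA-Phe-1-1-/- (1.05% of all genes), 0 of 8 in tRNA-Phe-2-1-/- (0%) and 0 of 8 in tRNA-Phe-3-1-/- (0%) against WT, with 0, 0 and 2 genes at an unadjusted p under 0.05. edgeR called 0 in each, and DESeq2 called 0, 0 and 1. Between knockouts 0 of 8 were called when tRNA-Phe-1-1-/- was set against tRNA-Phe-2-1-/- (0.53% of all genes) or against tRNA-Phe-3-1-/- (2.11%), and 0 of 8 between these last lines (0%), with 0, 2 and 1 genes at an unadjusted p under 0.05, 0 called by edgeR and 0, 1 and 0 called by DESeq2. The test of any difference among the 4 genotypes called 0 of 8 (0.634% of all genes), with 2 at an unadjusted p under 0.05, 0 called by edgeR and 1 by DESeq2.

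**Figure D3:**
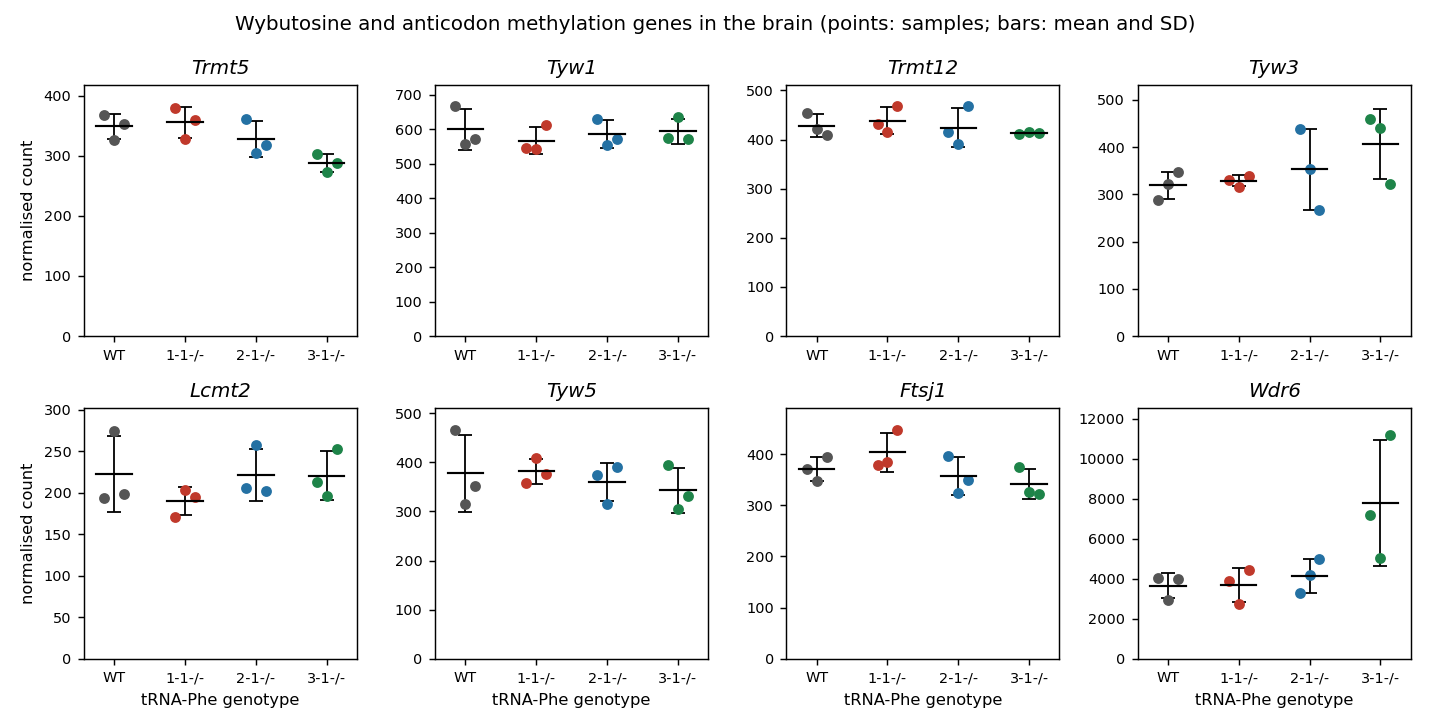
Normalised counts of the 8 genes in each brain sample by genotype, on linear axes that start at 0 (points are samples, lines and bars are the mean and SD of 3). Wdr6 in the tRNA-Phe-3-1-/- brains, from 5030 to 11210, lies above all other genotypes and spreads most.

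Among the 8 genes of the brain, Wdr6 had the largest difference from WT. The WT brains had normalised counts of 4036, 2925 and 3979, and the tRNA-Phe-3-1-/- brains 7169, 5030 and 11210. All 3 tRNA-Phe-3-1-/- samples were above every other brain sample, but they differed from each other more than any other group did (SD 3138 around a mean of 7803). The log2 fold change was 1.03 ± 0.28, with an unadjusted p of 0.00326 and an adjusted p of 0.217. It stayed positive under all 22 alternatives (0.73 to 1.31) and passed in 1 of them, DESeq2 on recovered reads (adjusted p = 0.01). Without replicate C, the highest sample, it was 0.73 (adjusted p = 0.461).

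The tRNA-Phe-1-1-/- brains, set against the tRNA-Phe-3-1-/- brains, had a log2 difference in Wdr6 of -1.03 ± 0.28 that did not pass (adjusted p = 0.0845). Without tRNA-Phe-3-1-/- replicate B this difference was -1.31 and passed (adjusted p = 0.0375). The highest tRNA-Phe-2-1-/- brain had 4991 normalised counts of Wdr6, just under the lowest tRNA-Phe-3-1-/- brain at 5030. How many of all genes show such a gap was not counted for this pair. The log2 difference of tRNA-Phe-2-1-/- against tRNA-Phe-3-1-/- was -0.86 ± 0.28 and did not pass (adjusted p = 0.391).

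Of the brains with high Wdr6, tRNA-Phe-3-1-/- replicates A and C were apart from WT in the neuronal and fibroblast sums below, and replicate B was not. In tRNA-Phe-3-1-/- replicates A, B and C, in that order, the sum of 3 neuronal markers was 82660, 94320 and 57110 normalised counts, against 94300 to 115600 in WT. The sum of 3 markers of stellate cells and fibroblasts, which in the brain would come from vessels and meninges, was 1681, 925.1 and 2391 in the same order, against 505.2 to 1289 in WT. The oligodendrocyte sum was 54400, 72230 and 119600 in the same order, on both sides of the WT range of 82770 to 97140. Replicate C was also above WT in the erythroid sum (25610 against 10700 to 19130) and the astrocyte sum (26650 against 19990 to 23530). The sample with the highest Wdr6 thus had the lowest neuronal sum and the highest fibroblast sum, but other sums differed too. The part of these markers in the Wdr6 values was not tested. No marker of these lists was called in tRNA-Phe-3-1-/- brains.

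In tRNA-Phe-1-1-/- brains Wdr6 had normalised counts of 3907, 2735 and 4436, which overlapped WT, with a log2 fold change of 0.00 (95% interval -0.61 to 0.61). The tRNA-Phe-2-1-/- brains had 3282, 4168 and 4991 and overlapped WT too. Tyw5, called in tRNA-Phe-1-1-/- livers, had 358.6, 409.4 and 376.8 in tRNA-Phe-1-1-/- brains and 465.3, 316.0 and 352.2 in WT brains, a log2 fold change of 0.03 (95% interval -0.31 to 0.37). Ftsj1 was at 378.1, 384.5 and 447.9 against 370.4, 347.7 and 393.9, a log2 fold change of 0.12 (-0.13 to 0.37). In the other knockout brains both genes had log2 fold changes between -0.13 and -0.06, with adjusted p of 0.713 or more. For Tyw5 in tRNA-Phe-1-1-/- livers the 95% interval around -1.09 was -1.45 to -0.72. Whether the effects differ between the tissues was not tested.

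Trmt5 was the other gene of the brain with an unadjusted p under 0.05. Its normalised counts were 302.8, 272.3 and 288.3 in tRNA-Phe-3-1-/- brains, below the WT values of 367.8, 326.6 and 353.3. The log2 fold change was -0.28 ± 0.10, with an adjusted p of 0.316. Against tRNA-Phe-3-1-/-, the tRNA-Phe-1-1-/- brains had a log2 difference in Trmt5 of 0.30 ± 0.10 (adjusted p = 0.141). Wdr6 and Trmt5 were the 2 genes of the 8 whose ranges did not overlap WT in tRNA-Phe-3-1-/- brains (16.4% of all genes), while 0 of 8 were apart in tRNA-Phe-1-1-/- (25.2% of all genes) and 0 of 8 in tRNA-Phe-2-1-/- (11.4%).

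The other steps did not pass the test in the brain either. Tyw1, Trmt12 and Lcmt2 had log2 fold changes from -0.21 to 0.03 in the 3 knockouts, and the tightest interval was that of Trmt12, whose tRNA-Phe-2-1-/- value of -0.01 had a 95% interval of -0.22 to 0.19. Tyw3, in contrast to the liver, was steady in the WT brains (289.1, 321.3 and 346.5 normalised counts). It spread from 266.6 to 438.0 in the tRNA-Phe-2-1-/- brains. In tRNA-Phe-3-1-/- it was at 459.0, 440.7 and 321.9, a log2 fold change of 0.34 ± 0.18 (adjusted p = 0.485). The median log2 fold changes of the 8 genes in the brain were 0.03 in tRNA-Phe-1-1-/-, -0.02 in tRNA-Phe-2-1-/- and -0.03 in tRNA-Phe-3-1-/-, beside 0.00 over all genes in each.

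The genes whose log2 values were most like those of Wdr6 over the 12 brains were Meox1, a mesodermal homeobox gene (Pearson's r = 0.972), Rsph9, a part of the radial spokes of cilia (0.958), and Pcsk4, a proprotein convertase (0.942). Meox1 was scarce, with a mean normalised count of 13.9. Over the 12 livers they were Pfdn1, a subunit of the chaperone prefoldin (0.949), Ugt2b35, a glucuronosyltransferase (0.945), and Septin10 (0.939). These likenesses are descriptions over 12 samples that share their genotypes.

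On the opposite strand, Wdr6 overlaps Dalrd3, whose protein is a partner of the METTL2 methyltransferase at position 32 of arginine tRNAs. The reads were assigned with strand. Dalrd3 rose in tRNA-Phe-1-1-/- in both tissues. In the liver its normalised counts were 1324, 1429 and 1320 against 846.1, 918.2 and 761.4 in WT, a log2 fold change of 0.69 ± 0.09 (adjusted p = 0.000799). All 3 mutants lay above the 3 WT samples, where Wdr6 lay below, and the call held under all 22 alternatives.

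In the brain Dalrd3 was at 1943, 1994 and 1977 against 1479, 1451 and 1442, a log2 fold change of 0.44 ± 0.07 (adjusted p = 0.0256), where Wdr6 was level with WT. This brain call was lost without any one of WT replicates A, B or C or tRNA-Phe-1-1-/- replicates B or C (adjusted p between 0.0610 and 0.121), and without a variance trend (0.0530). In these tRNA-Phe-1-1-/- brains the sum of 3 oligodendrocyte markers was 31740 to 58710 against 82770 to 97140 in WT. That of 3 erythroid markers was 5344 to 6734 against 10700 to 19130, and that of 3 endothelial markers 1345 to 1399 against 1414 to 1525. None of these markers was called, and their part in this value was not tested. In the other knockouts Dalrd3 did not pass the test, with log2 fold changes of 0.07 to 0.21 over both tissues. Its tRNA-Phe-2-1-/- samples were nonetheless all above WT, at 1012, 936.3 and 961.4 in the liver and 1519, 1515 and 1727 in the brain. Such a gap to WT in either direction was found in tRNA-Phe-2-1-/- for 25.4% of liver genes and 11.4% of brain genes. The tRNA-Phe-3-1-/- samples overlapped WT in both tissues. Of the other members, Trmt5 overlaps Mnat1 and Slc38a6, Tyw3 overlaps Cryz, Lcmt2 overlaps Adal and Tyw5 overlaps Maip1, each on the opposite strand, and Lcmt2 shares its own strand with the snRNA gene Gm23858. Trmt12 and Ftsj1 overlap lncRNA genes of the later annotation on the opposite strand.

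**Figure D4:**
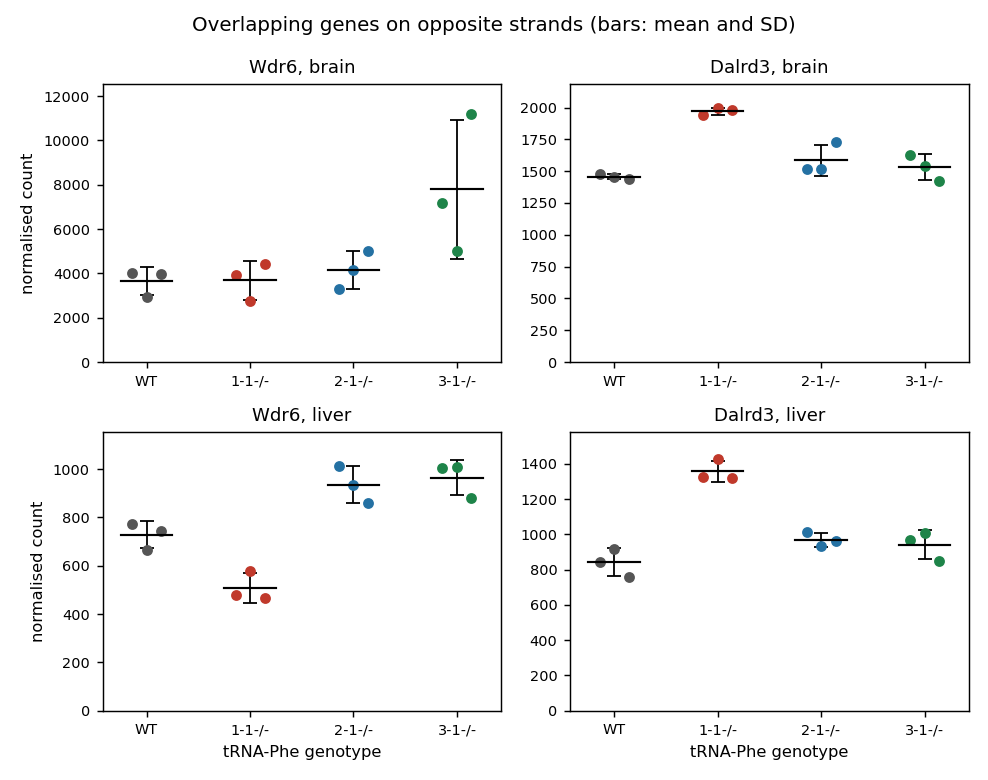
Normalised counts of Wdr6 and of Dalrd3, which overlaps it on the opposite strand, by genotype in the brain (top) and the liver (bottom), on linear axes that start at 0 (points are samples, lines and bars are the mean and SD of 3). In tRNA-Phe-1-1-/- livers Dalrd3 is at 1320 or more and Wdr6 at 577.5 or less.

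Of the enzymes that modify other positions of tRNA-Phe, 3 of 17 passed in tRNA-Phe-1-1-/- livers (2 higher, 1 lower), where 17.3% of all genes were called, and their median log2 fold change was 0.20 beside -0.01 over all genes. None passed in the other knockouts. Trmt61a, the catalytic subunit for 1-methyladenosine in the T loop, rose by 0.90 ± 0.20 on the log2 scale (adjusted p = 0.0108) and held under all 22 alternatives. Nsun2, a cytosine methyltransferase, was higher by 0.31 ± 0.09 (adjusted p = 0.0300), and Wdr4, the partner of METTL1 for 7-methylguanosine, was lower (log2 fold change -0.32 ± 0.09, adjusted p = 0.0258). The call of Nsun2 was lost without WT replicate B (adjusted p = 0.109) or tRNA-Phe-1-1-/- replicate A (0.0929) or C (0.0633), and with no filter (0.0522), no variance trend (0.0586) or only the compared groups (0.0729). That of Wdr4 was lost with only the compared groups (0.0883) and without WT replicate B (0.0666) or C (0.101) or tRNA-Phe-1-1-/- replicate A (0.0788) or B (0.0679).

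In the brain, 0 of 17 of these enzymes passed in any knockout. The 4 with the lowest p for any difference among genotypes were Trub1 (adjusted p = 0.0754), Wdr4 (0.241), Trmt112 (0.277) and Dus2 (0.308). Trmt112, a small activator of several tRNA methyltransferases, had log2 fold changes between -0.10 and 0.27 in the 2 tissues and 3 knockouts, with adjusted p of 0.165 or more.

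Among enzymes and partners for the anticodon loops of other tRNAs, 32 of 33 were in the tables and tested. In tRNA-Phe-1-1-/- livers 3 were higher and 1 lower (median log2 fold change 0.01), beside 17.3% of all genes called. In tRNA-Phe-1-1-/- brains Dalrd3 alone passed (median 0.03), beside 1.05% of all genes, and none passed in the other knockouts. Beside Dalrd3, Qtrt2, a subunit of the enzyme that inserts queuine, was higher in the liver by 1.07 ± 0.26 (adjusted p = 0.0153) and Yrdc, which makes the precursor of threonylcarbamoyladenosine, by 0.69 ± 0.21 (adjusted p = 0.0404). For both genes the liver of tRNA-Phe-3-1-/- replicate B was above every tRNA-Phe-1-1-/- liver. It was at 403.9 against 337.7 to 393.2 for Qtrt2 and at 663.9 against 475.2 to 548.5 for Yrdc. Elp4, a subunit of Elongator, was lower (log2 fold change -0.86 ± 0.13, adjusted p = 0.00161), and this call held under all 22 alternatives.

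The call of Yrdc held in 9 of 22 alternatives and was lost without any one of the WT, tRNA-Phe-1-1-/- or tRNA-Phe-2-1-/- libraries or tRNA-Phe-3-1-/- replicate C (adjusted p between 0.0507 and 0.146). That of Qtrt2 was lost without WT replicate A (adjusted p = 0.0517) or C (0.0617) or tRNA-Phe-1-1-/- replicate A (0.0527). Thada, the partner of FTSJ1 at position 32, was not called in any comparison with WT. Its largest log2 fold change was 0.37 ± 0.14 in tRNA-Phe-1-1-/- livers (adjusted p = 0.0993), the same sign as that of Ftsj1 there, and it was between -0.17 and 0.02 in the knockout brains.

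S-adenosylmethionine is used by members of this set, among them TRMT5, TRMT12, TYW3, LCMT2 and FTSJ1. Of 8 genes of its supply, 1 passed in tRNA-Phe-1-1-/- livers (median log2 fold change 0.02, with 17.3% of all genes called) and 1 in tRNA-Phe-1-1-/- brains (median -0.13, with 1.05% called), and none in the other knockouts. Mtrr, which reactivates methionine synthase, was higher at 389.6, 358.8 and 444.1 against 237.4, 220.4 and 171.2, a log2 fold change of 0.93 ± 0.15 (adjusted p = 0.00200). This call held under all 22 alternatives.

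Mat2a, the S-adenosylmethionine synthetase of non-hepatic tissues, was higher in tRNA-Phe-1-1-/- brains by 0.41 ± 0.08 (adjusted p = 0.0470), a call that held in 6 of 22 alternatives and was lost without any library other than tRNA-Phe-1-1-/- replicate A or tRNA-Phe-3-1-/- replicate C (adjusted p between 0.0529 and 0.174). Its values were 5147, 6033 and 5573 against 4471, 3797 and 4304 in WT. These are the brains with the lower oligodendrocyte, erythroid and endothelial sums, whose part in this value was not tested either. In the liver it did not pass (log2 fold change 0.34, adjusted p = 0.211).

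**Figure D5:**
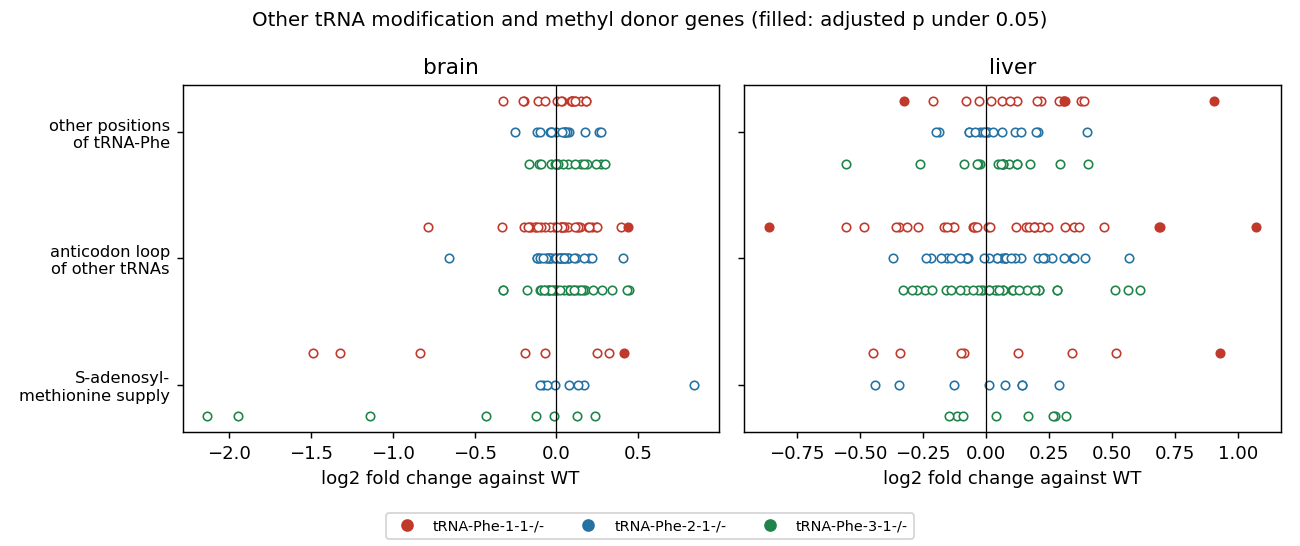
Log2 fold change against WT of 17 enzymes of other positions of tRNA-Phe, 32 genes for the anticodon loops of other tRNAs and 8 genes of S-adenosylmethionine supply (1 point per gene and knockout, filled where the adjusted p by limma was under 0.05). Filled points occur in tRNA-Phe-1-1-/- only, 2 in the brain and 8 in the liver, from -0.86 (Elp4) to 1.07 (Qtrt2).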

How the data were processed

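According to the methods, reads were trimmed, aligned to GRCm38.p6 with STAR and assigned to GENCODE transcripts by Salmon, with strand and with correction of sequence and GC bias. The authors then summed the estimates to genes (tximport) and scaled each tissue with DESeq2. The deposited tables hold these normalised counts, a signal of estimated counts divided by 1 size factor per sample by the authors. Each value was a whole multiple of the column's step (100% of values above 0 within 0.05 of a whole read), so reads were recovered for depth, RPKM and count tests. The deposited tables of comparisons hold the authors' means, log2 fold changes with errors and s-values, and were not used.

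Genotype, tissue and replicate letter came from the sample titles. Symbols were found for 93.2% of 55434 Ensembl identifiers. Each tissue was fitted on its 12 samples with limma 3.58.1 (R 4.3.3) on log2(normalised count + 1) with a variance trend, for genes with a mean of at least 10. Such fold changes understate low genes. P-values are two-sided, adjusted over all genes of a comparison. Per the study's methods, the RNA came from at least 3 mice per genotype, so replicates were taken as separate mice. The script was tested on simulated data. Alternatives were pseudocounts of 0.1 and 5, no filter, a mean of at least 50, quantile normalisation, no trend, only the compared groups, a replicate block, edgeR 4.0.16, DESeq2 1.42.0 and leaving out each sample.

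All 8 genes were named whatever their values. Of the other lists, genes called in any knockout were named in each tissue, or the 4 with the lowest F-test p where none or over 4 were called. Thada and Trmt112 were named in any case, and the 3 genes most correlated with the member of lowest F-test p in each tissue. A gene of 1 list is not reported here and was left out of its counts. The members and lists were chosen with earlier results of these data known. Member positions are from RefSeq for GRCm38.p6, overlaps and exon lengths from GENCODE vM39, and tRNA genes were found by matching the study's guide to GRCm39.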

Additional observations from a re-analysis of the deposited data

Results flagged for a closer look

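The effects of the knockouts on 3 genes differed from each other in the liver by the direct test. The log2 difference of tRNA-Phe-1-1-/- against tRNA-Phe-2-1-/- was -1.15 for Tyw5, -0.88 for Wdr6 and 0.34 for Ftsj1, and against tRNA-Phe-3-1-/- it was -1.17, -0.93 and 0.32 in the same order. The calls of Tyw5 and Wdr6 held under all 22 alternatives, while those of Ftsj1 held in 12 and 7 of 22 and were lost under the replicate block. For Wdr6 the knockouts lay on both sides of WT in the liver, but the upper side did not pass against WT (adjusted p = 0.190 and 0.106 by limma) and such gaps occurred in 25.4% and 19.9% of all genes. Both pairs use the same 3 tRNA-Phe-1-1-/- livers.

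Tyw3 in tRNA-Phe-3-1-/- mice lay on opposite sides of the WT mean in the tissues, with every brain above it (log2 fold change 0.34) and every liver below it (-0.053). This difference between tissues was not tested, and the WT livers alone spread from 38.10 to 185.5 normalised counts.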

How the results depend on the processing

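The number of the 8 genes called stayed within 1.5 times the reported one in 300 repeats and moved in 6. Each of the 6 went from 0 to 1 gene, which was Wdr6. With DESeq2 on recovered reads this was 1 for the brain in tRNA-Phe-3-1-/- against WT, in tRNA-Phe-1-1-/- compared with tRNA-Phe-3-1-/- and in any difference among the genotypes, and 1 for the liver in tRNA-Phe-3-1-/- against WT. Leaving out 1 sample at a time gave 0 to 1 for tRNA-Phe-1-1-/- compared with tRNA-Phe-3-1-/- in the brain. In tRNA-Phe-1-1-/- livers the count against WT was 2 or 3 throughout, Ftsj1 being the gene that was lost. Among single genes named, a call was lost in 79 repeats and gained in 6, and 0 called values changed sign.

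The shares of all genes called were less stable. In the brain DESeq2 called 874 genes against 202 by limma in tRNA-Phe-1-1-/-, 19 against 0 in tRNA-Phe-2-1-/- and 372 against 0 in tRNA-Phe-3-1-/-. In the liver it called 497 against 21 in tRNA-Phe-2-1-/- and 757 against 140 in tRNA-Phe-3-1-/-. Between knockouts it called 673 against 102, 1301 against 406 and 166 against 0 in the brain and 29 against 0 in the pair of the liver without tRNA-Phe-1-1-/-, and for any difference 1582 against 122 in the brain and 4586 against 2688 in the liver. Without WT replicate C, limma called 5 genes in tRNA-Phe-1-1-/- brains and 1472 in place of 2751 in tRNA-Phe-1-1-/- livers, and without tRNA-Phe-3-1-/- replicate C it called 2 in tRNA-Phe-3-1-/- livers.

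A fit with the replicate letter as a block gave 1 gene in place of 0 for tRNA-Phe-1-1-/- compared with tRNA-Phe-3-1-/- in the brain (Wdr6, adjusted p = 0.0341) and moved no other count of the 8 genes by more than 1.5 times. In the brain, 7 of 18 pairs of samples with the same letter had a correlation over 0.1, against 9 of 36 with different letters. In the liver these were 3 of 18 and 10 of 36. The median correlation of same-letter and different-letter pairs was 0.034 and -0.035 in the brain, and -0.025 and -0.004 in the liver. Same-letter pairs were thus slightly more alike in the brain only. The labels do not say what the letters stand for, so they were not taken as pairs. With 3 samples a group, the spread between replicates limited what was called, most of all for Tyw3 in the liver.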

Other observations

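Genes of methionine metabolism that are abundant in the liver were scarce in the brain. Mat1a, Bhmt and Gnmt had mean normalised counts of 16.3, 23.9 and 14.1 over the 12 brains, and were chosen after their values were seen. In tRNA-Phe-3-1-/- brains their means were 3.46 ± 2.08, 5.90 ± 5.16 and 7.72 ± 5.48 (SD, n = 3), against 19.3 ± 13.6, 24.7 ± 17.3 and 16.2 ± 3.95 in WT, and none passed the test. In tRNA-Phe-1-1-/- brains the means were 21.2, 21.6 and 15.9, with SDs of 32.4, 33.9 and 18.5, and log2 fold changes of -1.32, -1.49 and -0.83, none of which passed. The sum of 3 hepatocyte markers moved with them, at 15.1 to 48.4 normalised counts in tRNA-Phe-3-1-/- brains and 189.6 to 772.4 in WT brains, and in tRNA-Phe-1-1-/- replicates A, B and C it was 1000, 11.4 and 48.1. Its part in these values was not tested.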
